A study of Rattus norvegicus with 8 samples.

Results

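Nuclear genes for subunits of the mitochondrial respiratory chain and ATP synthase were followed in rat kidney medulla and cortex. Genes were taken by symbol: those that start with Nduf, Uqcr or Atp5, those of the Cox4 to Cox8 series, and Sdha, Sdhb, Sdhc and Sdhd. This gave 100 of the 18166 genes measured, each through the probe set with its highest mean log2 intensity over the 8 arrays. Sorted by the complex their products belong to, 38 are of complex I, 4 of complex II, 9 of complex III, 20 of complex IV and 20 of complex V, and 9 carry symbols of complex I assembly factors. RefSeq annotates 93 of the 100 as protein-coding, 5 as pseudogenes, 1 as a transcribed pseudogene and 1 as a long noncoding RNA. In all, 17 genes are copies or pseudogenes of a subunit or assembly factor by their symbol, and 66 are the general subunits of the complexes, without copies, alternative isoforms and assembly or regulatory factors.

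The respiratory chain moves electrons from NADH and succinate to oxygen through complexes I to IV, in the inner mitochondrial membrane, and complexes I, III and IV pump protons as they do so. Complex V, the ATP synthase, uses the proton gradient to make ATP. Kidney tubules are among the tissues richest in mitochondria: the proximal tubule of the cortex and the thick ascending limb, which runs from the medulla into the cortex, reabsorb solutes at the cost of ATP made in this way, while the inner medulla has little oxygen and relies more on glycolysis.

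The samples were 4 arrays of kidney medulla and 4 of kidney cortex from ten-week-old male Wistar rats. All 8 carry 1 treatment label, ethylene glycol each day and vitamin D every second day for 1 week, so no group without the treatment was compared. Ethylene glycol is metabolised to oxalate, and the combination is used to raise calcium oxalate crystals in rat kidney. The labels name no animals, so a p-value here speaks only to the variation among the arrays, part of which may be technical. Replicate numbers follow the order of the samples and were used only as names, and the labels do not say whether medulla and cortex arrays of the same number come from 1 animal. The study's design text describes selecting genes that vary at least 2-fold in each region, and the comparisons here are medulla against cortex and array against array within a region. The tissue is bulk tissue, in which fewer cells of a type and less RNA per cell cannot be told apart.

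The region labels were checked with marker genes. Slc14a2, the urea transporter gene of the inner medulla, gave 7.42, 6.15, 6.49 and 6.76 log2 intensity in medulla, against 5.88, 4.95, 5.05 and 4.80 in cortex, without overlap. Over the 4 inner medulla markers the summed intensity was 740 to 1485 in medulla and 434 to 814 in cortex. Slc5a3, Akr1b1 and Nfat5 overlapped between the regions, with cortex replicate 1 (8.12, 6.69 and 8.54) above medulla replicate 2 (7.92, 6.68 and 8.34). The 9 measured proximal tubule markers summed to 6458 to 10208 in medulla and 8470 to 11505 in cortex, so the medulla arrays also carried much proximal tubule signal. On cortex replicate 1 the inner medulla markers had a median of 0.64 above the mean of the cortex arrays. There 9 of the 9 proximal tubule markers lay below that mean. Array medians lay between 34.1 and 34.7 intensity units. The arrays of each region were not alike: Havcr1, kidney injury molecule 1, gave 4.54, 4.80, 8.95 and 11.32 on medulla replicates 1 to 4, and 4.59, 5.15, 7.54 and 11.27 on cortex replicates 1 to 4. The order of the arrays by Havcr1 was the same in both regions. The labels give no difference in treatment to go with these values, so whether every array had the same treatment is not settled by the data used here, and a deviation or range within a region may hold more than the spread between like-treated rats. The counts of negative differences, by complex and by kind of gene, and the ranges are given with and without the arrays at the top of the Havcr1 range, medulla replicate 4 and cortex replicate 4.

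The subunits of each complex are needed in fixed proportions, and the promoters of such genes are known to share sites for the activators NRF1, ETS factors such as GABP, YY1 and the estrogen-related receptors (ERR). RefSeq promoter windows of assembly GRCr8, 250 bases before to 30 after the annotated start, were matched to 81 of the 100 genes. They were searched on both strands for GCATGCGC (NRF1), CCGGAAG (ETS), AAGATGGC (YY1) and AAGGTCA (ERR), none of which overlapped another motif in the windows printed here, with CCAAT as a motif of promoters in general. The 5 windows printed are, for each complex, a general subunit gene with the most different motifs, and at a tie the one with more matches and then the more negative regional difference. By this Atp5me stands for complex V in place of Atp5mg, which also held 3 different motifs, and Uqcrc1 for complex III in place of Uqcrq, which also held 2. The capitals mark matches to the 4 activator motifs on either strand.
Ndufa6, complex I, chr7:115750288-115750567, minus strand: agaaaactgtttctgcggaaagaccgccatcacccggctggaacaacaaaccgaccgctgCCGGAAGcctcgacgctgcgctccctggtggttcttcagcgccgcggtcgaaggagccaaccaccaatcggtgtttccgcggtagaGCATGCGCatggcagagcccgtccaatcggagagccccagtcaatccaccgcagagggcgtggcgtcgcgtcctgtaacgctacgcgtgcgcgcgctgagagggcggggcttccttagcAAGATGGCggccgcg
Sdhb, complex II, chr5:158547684-158547963, plus strand: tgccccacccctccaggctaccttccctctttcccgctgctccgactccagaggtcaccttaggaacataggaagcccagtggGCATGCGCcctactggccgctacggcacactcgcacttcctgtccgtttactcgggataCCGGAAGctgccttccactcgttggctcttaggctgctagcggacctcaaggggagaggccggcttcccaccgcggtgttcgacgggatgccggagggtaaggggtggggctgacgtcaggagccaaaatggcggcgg
Uqcrc1, complex III, chr8:118467973-118468252, plus strand: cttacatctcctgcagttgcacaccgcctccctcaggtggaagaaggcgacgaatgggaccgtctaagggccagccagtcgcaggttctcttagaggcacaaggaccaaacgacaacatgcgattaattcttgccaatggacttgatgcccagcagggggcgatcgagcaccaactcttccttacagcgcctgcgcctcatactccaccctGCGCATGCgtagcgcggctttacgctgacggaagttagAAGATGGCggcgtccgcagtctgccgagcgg
Cox8a, complex IV, chr1:213833594-213833873, minus strand: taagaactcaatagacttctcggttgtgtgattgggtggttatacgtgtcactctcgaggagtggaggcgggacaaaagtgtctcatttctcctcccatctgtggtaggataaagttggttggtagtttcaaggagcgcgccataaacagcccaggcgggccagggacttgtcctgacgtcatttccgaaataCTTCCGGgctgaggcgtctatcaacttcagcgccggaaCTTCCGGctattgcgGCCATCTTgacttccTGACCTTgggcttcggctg
Atp5me, complex V, chr14:1464610-1464889, plus strand: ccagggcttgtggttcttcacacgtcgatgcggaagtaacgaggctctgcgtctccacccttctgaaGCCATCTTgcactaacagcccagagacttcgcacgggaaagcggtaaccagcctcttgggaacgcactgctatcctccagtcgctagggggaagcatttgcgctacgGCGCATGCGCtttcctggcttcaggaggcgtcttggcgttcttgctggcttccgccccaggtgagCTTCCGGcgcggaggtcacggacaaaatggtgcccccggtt
In the Atp5me window the NRF1 letters match on both strands over a shared stretch, with first bases 76 and 74 bases upstream of the start. In Uqcrc1 the YY1 match begins 1 base upstream of the start, and in Cox8a 4 bases upstream.

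The NRF1 motif occurred in 10 of the 81 windows, 12.3%, against 3.64% of the windows of the 14503 genes on the array that had one. The ETS motif was in 21 windows, 25.9%, against 12.3% of genes on the array, and it was the most common of the 4 in this set. The YY1 motif was in 13 windows, 16%, against 3.5%, and the ERR motif in 7, 8.64%, against 3.23%. One or more of the 4 stood in 36 windows, 44.4%, against 20.6% of genes on the array and 17.2% of all 27457 promoters. The CCAAT letters showed no such excess, at 34.6% of the set and 37% of genes on the array. CCAAT has 5 letters where the other motifs have 7 or 8, and it occurred in 36.5% of all promoters. It is therefore a weak contrast for the longer motifs. The windows of the set had a median GC content of 55.4%, against 52.1% for all promoters, and base composition bears on how often such letters occur. A match is a description of the letters and not a bound site.

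**Figure D1:**
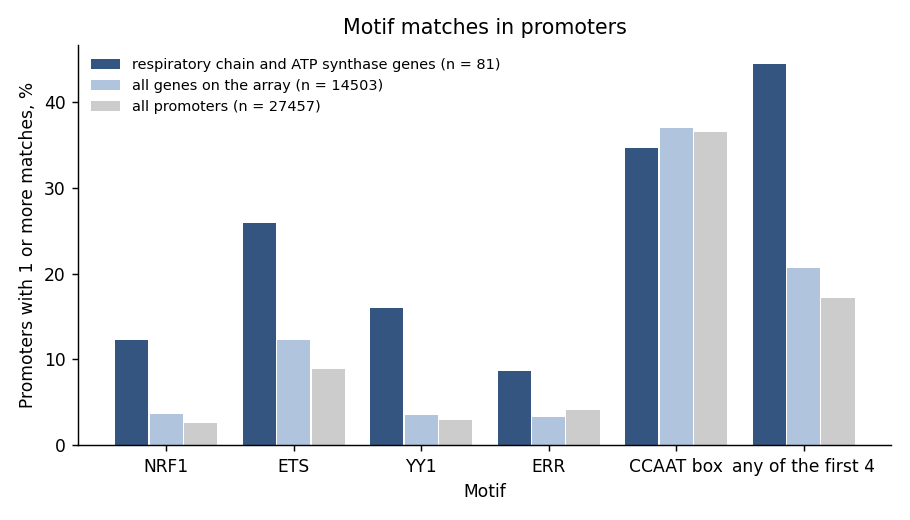
Share of promoter windows (%, from 0) with 1 or more matches to each motif, for the 81 respiratory chain and ATP synthase genes, for the 14503 genes on the array and for all 27457 promoters. The dark bars stand above both others for NRF1, ETS, YY1 and ERR, and for 1 or more of these 4 (44.4% against 20.6% and 17.2%), but not for the CCAAT box (34.6% against 37% and 36.5%).

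Between the regions, most of these genes had slightly lower values in medulla than in cortex, but no single gene passed the test. The medulla minus cortex difference was negative for 89 of the 100 genes, against 54.2% of all 18166 genes, and its median was -0.10 on the log2 scale, a difference of -6.97%, against -0.01 for all genes. The differences ran from -0.37 to 0.15. By limma with Benjamini-Hochberg adjustment over all genes, 0 of the 100 reached an adjusted p under 0.05 together with a 2-fold difference. This was also so for all genes (0%), and adjusted p-values of the set lay between 0.875 and 0.999. At an unadjusted p under 0.05, 4 of the 100 genes were lower in medulla (all genes 2.58%) and 0 were higher (all genes 2.77%). These were Atp5hl1, Cox6b1, Sdhc and Ndufa6, with unadjusted limma p-values of 0.000666, 0.0309, 0.0407 and 0.0419. Only the pseudogene Atp5hl1 had regions that did not overlap, with lower values in medulla (all genes 1.74%), and no gene of the set was higher without overlap (all genes 1.1%). The genes share the same 8 arrays and are not replicates of the comparison.

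The negative count was split by kind of gene and by brightness. Of the 66 general subunits 63 were negative, with a median of -0.14, against 12 of the 17 copies, with a median of -0.04, and 5 of the 7 alternative isoforms, with a median of -0.02. All 7 alternative isoforms and 13 of the 17 copies lay below the median of all genes in mean log2 intensity (5.58), where a probe set not above background would give a difference near 0. The set is bright: 63 genes lay above the upper quartile of mean log2 intensity of all genes, and 61 of these 63 were negative, while of the 4542 genes above that quartile 48.7% were negative. The count also depends on which arrays enter. Without medulla replicate 4 it was 70 of 100 with a median of -0.04, and without medulla replicate 2 it was 93 with a median of -0.19. Without cortex replicate 4 the count was 88 and the median -0.16, and without both replicate 4 arrays it was 85 and -0.09. By kind of gene, without medulla replicate 4 the count was 45 of the 66 general subunits, 11 of the 17 copies and 5 of the 7 isoforms, and without both replicate 4 arrays 61, 12 and 5. By complex, without medulla replicate 4 it was 24 of 38 for complex I, 2 of 4 for complex II, 6 of 9 for complex III, 17 of 20 for complex IV and 13 of 20 for complex V. Without both replicate 4 arrays these counts were 33, 4, 9, 17 and 15. Of all genes, 55.2% were negative without medulla replicate 4, 52.7% without cortex replicate 4 and 53.4% without both. Proximal tubule markers had a negative difference in 9 of 9 genes, with a median of -0.31, and inner medulla markers a positive one in 4 of 4, with a median of 1.10. The part of either in the respiratory genes' difference was not tested.

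**Figure D2:**
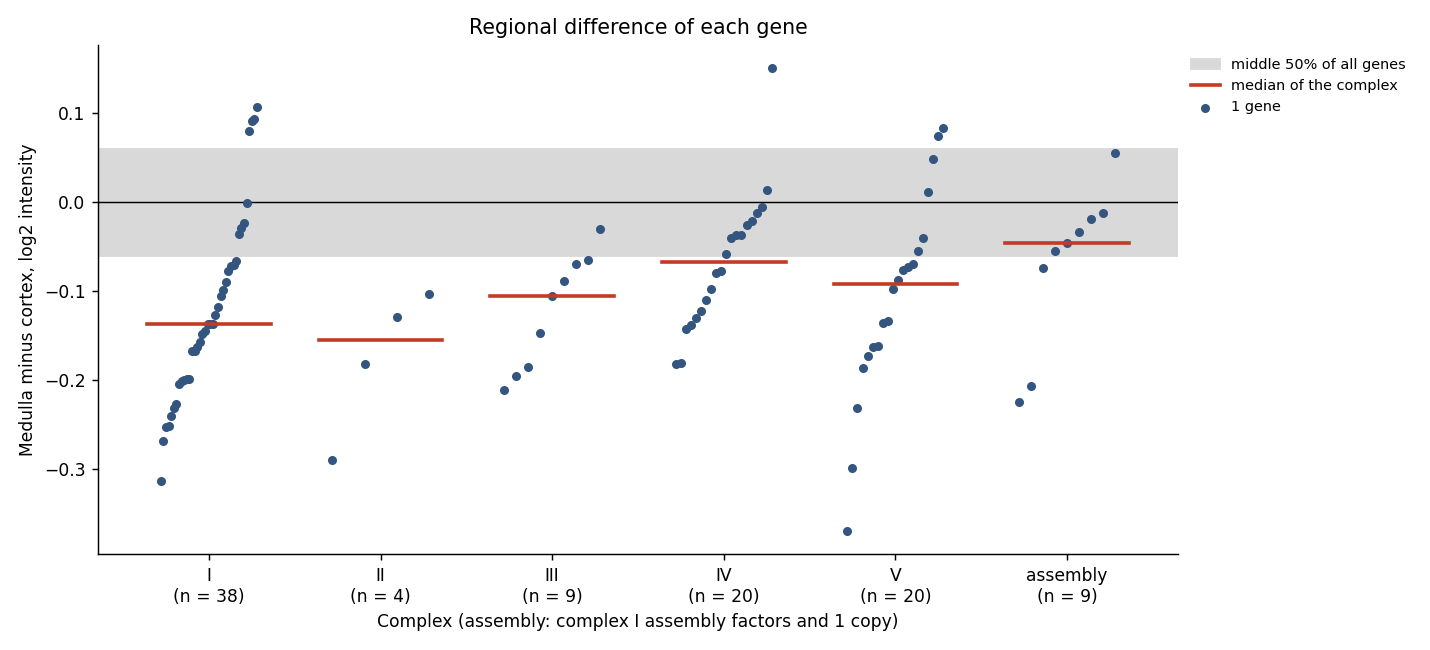
Medulla minus cortex difference of each gene (log2 intensity), by complex. Each point is 1 gene, red bars are medians, and the grey band holds the middle 50% of all genes (-0.06 to 0.06). The medians of complexes I, II, III, IV and V (-0.14, -0.16, -0.11, -0.07 and -0.09) lie below the band, and that of the assembly factors (-0.05) lies within it.

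In complex I, the NADH dehydrogenase, 34 of 38 genes were negative, with a median of -0.14. The 6 core subunits have counterparts in bacteria and include those that carry the flavin and the iron-sulfur clusters. They were negative in 6 of 6, and the 26 supernumerary subunits, which surround that core, in 24 of 26. Without medulla replicate 4 these counts were 4 of 6 and 16 of 26 (all genes 55.2%). Ndufa6, a supernumerary subunit, had the most negative difference of the complex. It gave 7.30, 7.66, 7.36 and 7.08 log2 intensity in medulla, against 7.53, 7.87, 7.67 and 7.58 in cortex. The regions overlap only through medulla replicate 2, and the difference was -0.31 ± 0.13 (SE, n = 4 each, limma adjusted p = 0.875). Ndufb10, also supernumerary, averaged 6.81 ± 0.33 in medulla and 7.08 ± 0.23 in cortex (SD, n = 4 each). The highest differences were those of Ndufc2, of the membrane arm, which gave 8.89, 8.97, 9.13 and 8.54 in medulla against 8.98, 8.97, 8.69 and 8.46 in cortex, and Ndufs6, at 6.56 ± 0.25 in medulla and 6.47 ± 0.37 in cortex (SD, n = 4 each). For both genes the regions overlap over most of their range.

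Complex II, succinate dehydrogenase, links the tricarboxylic acid cycle to the chain, and all 4 of its subunits are in the set. Each had a negative difference, with a median of -0.16. Sdhc, a membrane anchor, gave 8.80, 9.12, 8.78 and 8.73 in medulla, against 9.29, 9.32, 9.05 and 8.94 in cortex. Only medulla replicate 2 reached the range of the cortex arrays, and the difference was -0.29 ± 0.12 (SE, n = 4 each, limma adjusted p = 0.875). Sdhb, the iron-sulfur subunit whose promoter is printed above, averaged 8.59 ± 0.23 in medulla and 8.77 ± 0.11 in cortex, and Sdha, the flavoprotein, 9.59 ± 0.33 in medulla and 9.71 ± 0.21 in cortex (SD, n = 4 each). Sdhd, the other anchor, averaged 8.71 ± 0.32 in medulla and 8.81 ± 0.26 in cortex (SD, n = 4 each). Without medulla replicate 4 the difference was 0.01 for Sdha and 0.04 for Sdhd, so the direction of both rests on that array.

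In complex III, which passes electrons on to cytochrome c, all 9 genes were negative, with a median of -0.11. The core protein gene Uqcrc1 gave 8.27, 8.55, 8.04 and 7.99 in medulla, against 8.43, 8.50, 8.46 and 8.30 in cortex, and its highest value of all 8 was on medulla replicate 2. The small subunit Uqcrq gave 7.77, 8.09, 7.66 and 7.68 in medulla, against 7.94, 8.09, 7.98 and 7.97 in cortex, where 3 medulla arrays lay below the cortex values. The differences were -0.21 ± 0.13 for Uqcrc1 and -0.20 ± 0.10 for Uqcrq (SE, n = 4 each, limma adjusted p = 0.876 and 0.875). The copies Uqcr10-ps1 and Uqcr11l1 were nearest to 0, at -0.03 and -0.07.

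Complex IV, cytochrome c oxidase, hands electrons to oxygen, and 18 of its 20 genes were negative, with a median of -0.07. Its 10 general subunits were negative in 10 of 10 with a median of -0.13, and the rest of the 20 are mostly dim isoforms and copies. Several of its subunits exist as a general isoform and an isoform of muscle, lung or testis, and these were read side by side. Cox4i1, the general form of subunit IV, averaged 8.94 ± 0.27 in medulla and 9.06 ± 0.14 in cortex, while Cox4i2, known from lung and from hypoxia, averaged 5.13 ± 0.10 in medulla and 5.15 ± 0.10 in cortex (SD, n = 4 each). Cox6a1 had a difference of -0.18 and Cox8a one of -0.14. Their muscle isoforms averaged 5.10 ± 0.08 in medulla and 5.14 ± 0.09 in cortex for Cox6a2, and 4.73 ± 0.11 in medulla and 4.75 ± 0.11 in cortex for Cox8b (SD, n = 4 each). These values lie within the span of the 4 muscle marker genes. Myh7 was at 4.55 in medulla and 4.59 in cortex, and Acta1 at 4.85 in medulla and 4.90 in cortex. Tnni3 was at 5.01 in medulla and 5.04 in cortex, and Ckm at 5.58 in medulla and 5.57 in cortex. Neither isoform was shown to lie above background, so no regional difference is read from it. Cox7a1 and Cox7a2 are not among the genes analysed here.

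Cox6b1, the general form of subunit VIb, gave 7.43, 7.67, 7.49 and 7.57 in medulla, against 7.80, 7.80, 7.60 and 7.67 in cortex. The regions overlap through medulla replicate 2 alone, and the difference was -0.18 ± 0.07 (SE, n = 4 each, limma adjusted p = 0.875). With the mean of the gene's probe sets in place of the brightest it was -0.10. Its testis isoform Cox6b2 had the highest difference of the whole set: 5.13, 5.08, 5.19 and 5.47 in medulla, against 4.99, 5.18, 4.97 and 5.12 in cortex, with medulla replicate 4 above all others and a difference of 0.15 ± 0.09 (SE, n = 4 each, limma adjusted p = 0.877). Cox7b2, the testis isoform of subunit VIIb, gave values of 4.23 to 4.31 in medulla and 4.23 to 4.29 in cortex, near the dim end of the array. Ndufa4, first ascribed to complex I and now placed in complex IV, averaged 10.05 ± 0.11 in medulla and 10.15 ± 0.22 in cortex, and its hypoxia-induced paralogue Ndufa4l2 averaged 5.53 ± 0.27 in medulla and 5.57 ± 0.09 in cortex (SD, n = 4 each). For neither gene was the difference larger than the spread between arrays.

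In complex V, 16 of 20 genes were negative, with a median of -0.09. Of the 3 genes of the catalytic F1 part 3 were negative, and of the 10 genes of the membrane part and the stalk 9 were. Without medulla replicate 4 these counts were 2 of 3 and 7 of 10 (all genes 55.2%). Atp5me, the e subunit of the membrane part, gave 8.13, 8.58, 7.78 and 7.71 in medulla, against 8.25, 8.50, 8.40 and 8.25 in cortex. Its medulla values span the cortex values, and the difference was -0.30 ± 0.19 (SE, n = 4 each, limma adjusted p = 0.877). Atp5hl1, which RefSeq lists as a pseudogene, gave 6.36, 6.61, 6.31 and 6.46 in medulla, against 6.78, 6.86, 6.82 and 6.78 in cortex. Every medulla value was below every cortex value, and the difference was -0.37 ± 0.07 (SE, n = 4 each, limma adjusted p = 0.875). The adjusted p ranged from 0.248 to 1 over the alternatives, and its probe set may share sequence with the subunit gene it copies, so the source of its signal is uncertain. The highest differences of the complex were those of 2 more copies, Atp5mgl4 at 0.08 and Atp5mc1l1 at 0.08. Both regions overlap for each of them.

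The assembly factors build complex I without being part of it, and 7 of 8 were negative, with a median of -0.05. Ndufaf3 gave 6.24, 6.52, 6.09 and 6.40 in medulla, against 6.39, 6.67, 6.57 and 6.51 in cortex, and Ndufaf8 gave 6.69, 6.85, 6.40 and 6.58 in medulla, against 6.74, 6.97, 6.84 and 6.80 in cortex. In both genes medulla replicate 3 was lowest, and the differences were -0.23 ± 0.10 and -0.21 ± 0.10 (SE, n = 4 each, limma adjusted p = 0.875 for both). Ndufaf5, a factor that modifies a core subunit, had the highest difference, 0.05 ± 0.13 (SE, n = 4 each). The pseudogene Ndufaf7-ps1 stayed between 4.22 and 4.26 on all 8 arrays, close to the lowest signals.

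Within each region many of the genes were high or low on the same arrays. Each array was described by the deviation of a gene's log2 value from the mean of the 4 arrays of its region, and the median over the 100 genes was taken. It was 0.04, 0.24, -0.08 and -0.18 on medulla replicates 1 to 4, and 0.04, 0.09, 0.01 and -0.13 on cortex replicates 1 to 4, while the median over all genes stayed within -0.01 and 0.00. In medulla 82 of the 100 genes were highest on replicate 2 (all genes 27%). In cortex 46 were highest on replicate 2 (all genes 20%) and 33 on replicate 1 (all genes 24.1%).

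At the low end, 55 genes were lowest of their region on medulla replicate 4 (all genes 28.1%) and 29 on medulla replicate 3 (all genes 30%), while 12 were lowest on medulla replicate 1 (all genes 19%) and 4 on medulla replicate 2 (all genes 22.9%). In cortex 62 were lowest on replicate 4 (all genes 31.6%), 15 on replicate 1 (all genes 27.2%), 14 on replicate 3 (all genes 20.8%) and 9 on replicate 2 (all genes 20.4%). Of the 100 genes 46 were lowest on replicate 4 in both regions (all genes 16%), and 42 of these are among the 66 general subunits. Among bright genes, above the upper quartile of mean log2 intensity, 41 of the 63 genes of the set (65.1%) were lowest on replicate 4 in both regions, against 26.4% of all 4542 such genes. The shares are descriptions of these arrays, which the labels do not tell apart.

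**Figure D3:**
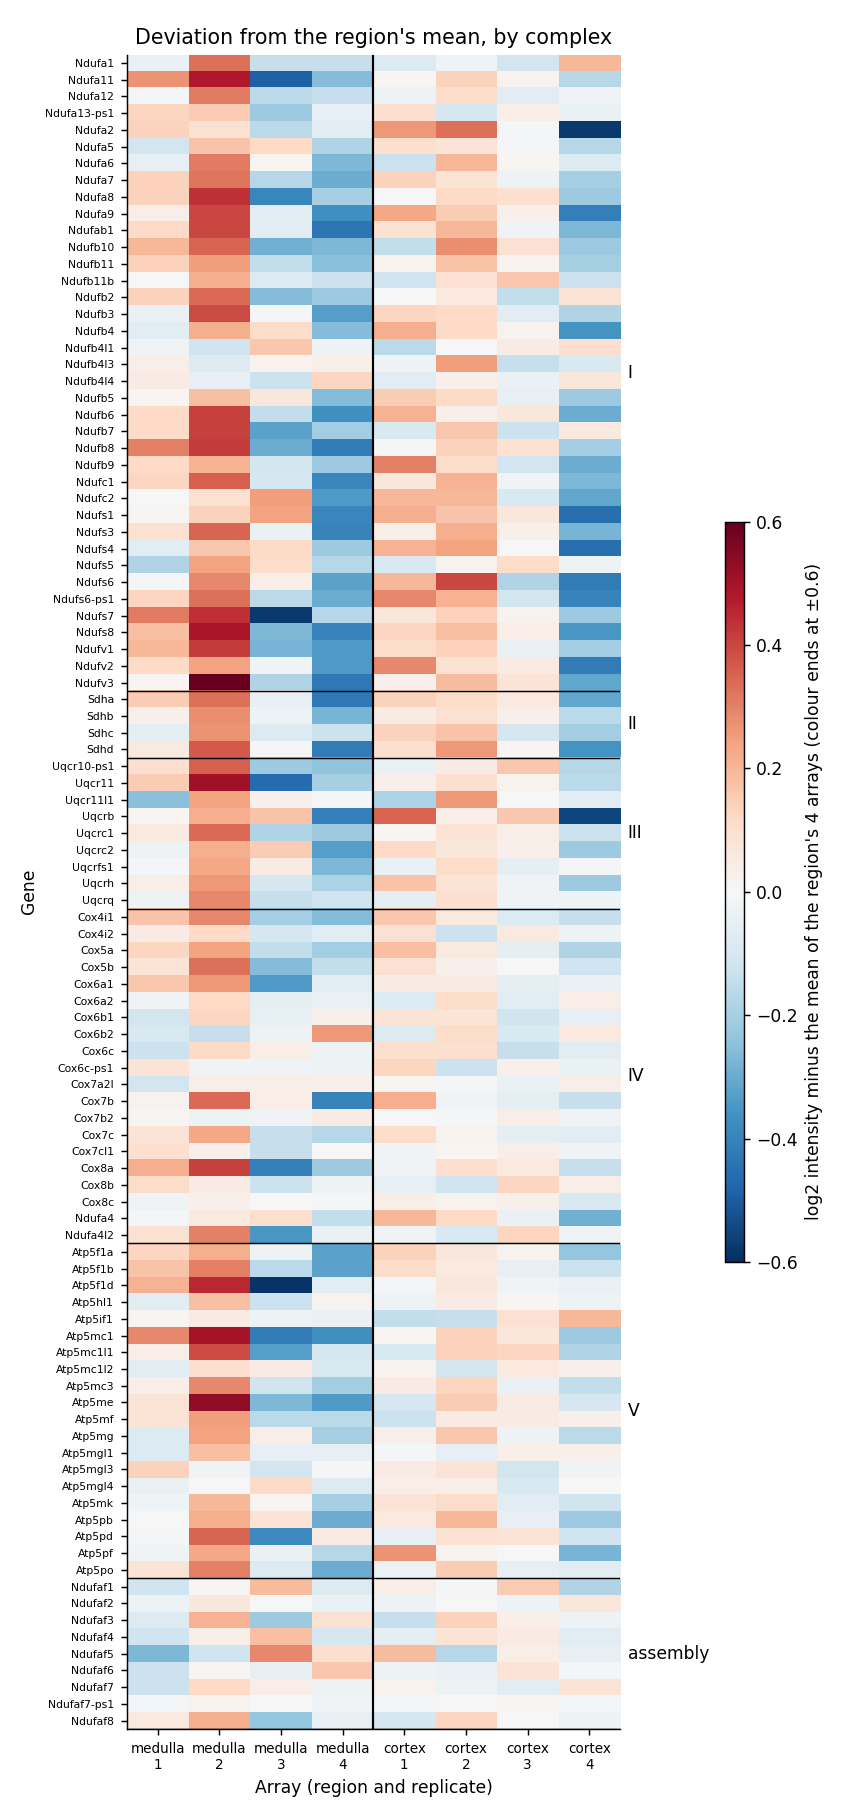
Deviation of each of the 100 genes on each array (rows, grouped by complex; log2 intensity minus the mean of the region's 4 arrays, colour ending at ±0.6), with the medulla arrays left of the line and the cortex arrays right of it. Medulla replicate 2 is red in most rows (highest in 82 of 100), medulla replicate 4 and cortex replicate 4 are blue in most (lowest in 55 and 62), and the assembly factors at the foot are pale.

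These deviations were then read by complex, first over all genes of each. On medulla replicate 4 the median was -0.26 for complex I, -0.35 for complex II, -0.22 for complex III, -0.04 for complex IV and -0.17 for complex V. On cortex replicate 4 it was -0.22 for complex I, -0.26 for complex II, -0.16 for complex III, -0.04 for complex IV and -0.11 for complex V. The complex IV medians include its dim isoforms and copies. Over its 10 general subunits the median was -0.16 on medulla replicate 4 and -0.13 on cortex replicate 4, against -0.22 on medulla replicate 4 and -0.16 on cortex replicate 4 for the 7 general subunits of complex III. For the 13 general subunits of complex V it was -0.21 on medulla replicate 4 and -0.13 on cortex replicate 4. The 6 core subunits of complex I were at -0.37 on medulla replicate 4 and -0.32 on cortex replicate 4, and 6 of 6 lay below the region's mean on each. All 4 subunits of complex II were lowest of their region on replicate 4 in both regions. The copies, at -0.03 on each of these arrays, and the assembly factors, at -0.03 on each, had medians near 0, and most of the copies are dim. The assembly factors are also less bright, with mean log2 intensities of 4.90 to 6.73, against 5.71 to 10.64 for the general subunits. The assembly factors had their low on another array: 5 of 8 were lowest of all medulla arrays on replicate 1, with a median deviation of -0.12 there.

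**Figure D4:**
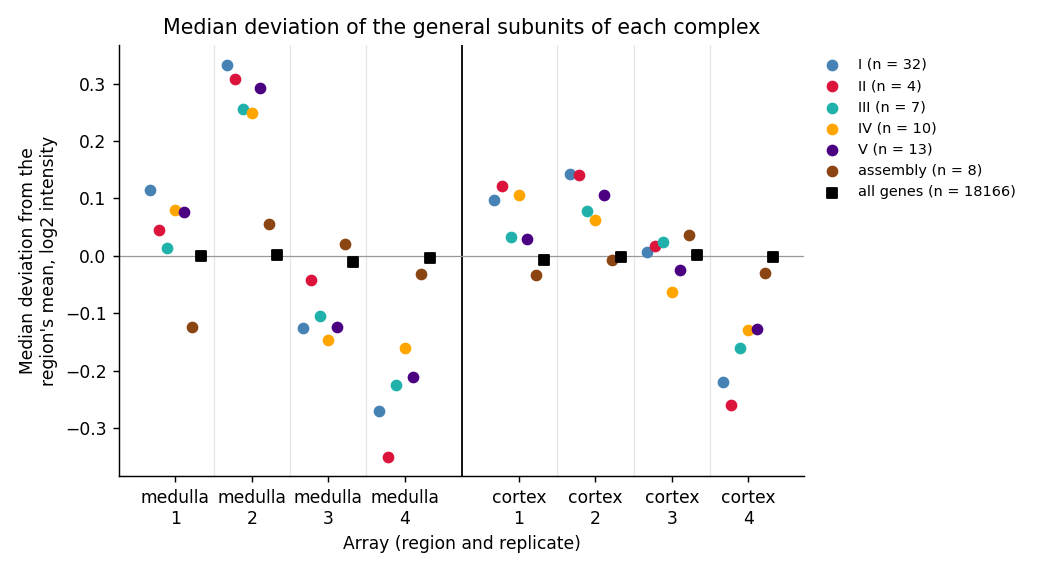
Median deviation from the region's mean (log2 intensity) of the general subunits of each complex, of the 8 assembly factors and of all genes, on each array, with medulla left of the line and cortex right of it. The general subunits of all 5 complexes are lowest on replicate 4 of each region, from -0.16 for complex IV to -0.35 for complex II in medulla and from -0.13 for complexes IV and V to -0.26 for complex II in cortex, and all genes stay between -0.01 and 0.00.

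The width of a gene's values within a region was read as its highest minus its lowest log2 value. The median range was 0.49 in medulla and 0.30 in cortex, against 0.25 in medulla and 0.21 in cortex for all genes, and 83 of the 100 genes had the wider range in medulla (all genes 57%). Bright genes have wider ranges, so the 63 genes above the upper quartile were read against all genes above it. Their median range was 0.59 in medulla and 0.35 in cortex, against 0.47 in medulla and 0.35 in cortex for the 4542 genes, and 54 of the 63 (85.7%) were wider in medulla, against 65.9%. In cortex the ranges of the set were thus no wider than those of other bright genes, and in medulla the gap was smaller than against all genes. Without both replicate 4 arrays the median range of the 100 genes was 0.36 in medulla and 0.19 in cortex, against 0.18 in medulla and 0.14 in cortex for all genes, and 83 of 100 were wider in medulla (all genes 60.7%). A 2-fold range, the size that the design text selects on, was reached by 3 genes in medulla (all genes 3.8%) and by 0 in cortex (all genes 3.6%), so by no gene in both. At 1.5-fold there were 38 in medulla (all genes 15.1%), 21 of them of complex I, and 11 in cortex (all genes 11.4%). Among the bright genes these were 32 of 63 in medulla (50.8%, against 34.1% of all bright genes) and 8 of 63 in cortex (12.7%, against 24%). The medulla count was 21 without replicate 4 (all genes 6.43%), and the cortex count was 0 without replicate 4 (all genes 3.17%). Among the bright genes the medulla count without replicate 4 was 17 of 63 (27%, against 15% of all bright genes). The medulla count was 10 without replicate 2 and the cortex count 7 without replicate 1, for which the share of all genes was not computed. In cortex 9 of the 11 were of complex I (among them Ndufs1, Ndufs4, Ndufv2 and the pseudogene Ndufs6-ps1), with Sdhd and Uqcrb.

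The 3 genes with a 2-fold range in medulla were Atp5f1d, Ndufs7 and Ndufv3. Atp5f1d, the delta subunit of the central stalk of ATP synthase, gave 9.45, 9.69, 8.65 and 9.16 in medulla, a 2.06-fold range, against 9.36, 9.45, 9.35 and 9.34 in cortex, a 1.08-fold range. Its low was on medulla replicate 3, and the cortex arrays hardly differed. Ndufs7, which holds the last iron-sulfur cluster before ubiquinone, gave 8.20, 8.32, 7.30 and 7.71 in medulla, a 2.03-fold range, against 8.15, 8.22, 8.10 and 7.86 in cortex, a 1.28-fold range. Ndufv3, a supernumerary subunit of the module that takes up NADH, gave 7.73, 8.32, 7.55 and 7.30 in medulla, a 2.04-fold range, against 8.01, 8.17, 8.06 and 7.67 in cortex, a 1.41-fold range. Ndufv3 was thus lowest on replicate 4 in both regions, unlike the other two. Without medulla replicate 2 no gene reached 2-fold, without medulla replicate 3 only 1 did, and without medulla replicate 4 there were 2.

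In medulla the genes showed 2 patterns, chosen here after their values were seen. Some were lowest on replicate 3, with replicate 4 above it, as Atp5f1d and Ndufs7 were. Cox8a, the general form of subunit VIII, gave 10.04, 10.23, 9.42 and 9.61 in medulla, against 9.95, 10.06, 10.02 and 9.82 in cortex. Cox6a1 gave 10.26, 10.36, 9.76 and 10.03 in medulla, against 10.34, 10.34, 10.22 and 10.25 in cortex, and the complex III subunit Uqcr11 gave 9.10, 9.46, 8.50 and 8.76 in medulla, against 9.17, 9.24, 9.16 and 8.98 in cortex. In each of these the low on medulla replicate 3 had no counterpart of like depth on any cortex array.

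Others were lowest on medulla replicate 4, and some of them were high on replicate 3. Ndufs1, the largest core subunit of complex I, gave 8.77, 8.91, 9.00 and 8.37 in medulla, against 9.06, 9.00, 8.90 and 8.38 in cortex, so that the replicate 4 arrays of both regions stood apart below the rest. Uqcrb gave 5.69, 5.90, 5.85 and 5.26 in medulla, against 6.10, 5.78, 5.90 and 5.19 in cortex, with the same arrays lowest, and Ndufc2, described above, was highest on medulla replicate 3. Sdha gave 9.73, 9.92, 9.53 and 9.16 in medulla, against 9.86, 9.83, 9.77 and 9.40 in cortex, and Sdhd gave 8.76, 9.08, 8.69 and 8.29 in medulla, against 8.91, 9.07, 8.82 and 8.44 in cortex. Over the 55 genes lowest on medulla replicate 4, replicate 3 exceeded replicate 4 by a median of 0.21. Over the 29 lowest on medulla replicate 3, replicate 3 minus replicate 4 had a median of -0.15. Both medians follow from the way the genes were sorted.

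**Figure D5:**
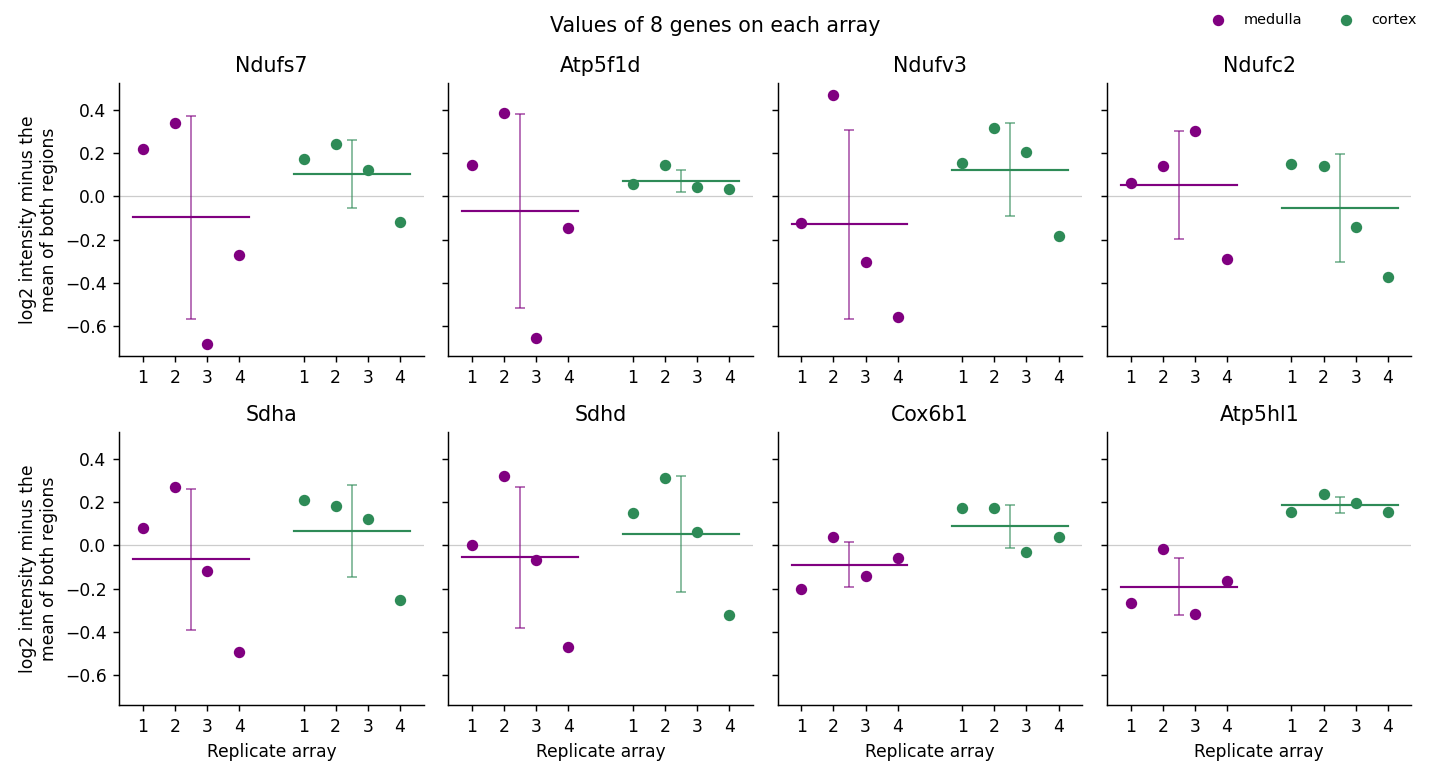
Log2 intensity of 8 genes on each array, as the difference from the mean of both regions, with medulla (purple) left and cortex (green) right of each panel; lines are region means and bars the SD (n = 4). Ndufs7 and Atp5f1d are lowest on medulla replicate 3, Ndufv3, Ndufc2, Sdha and Sdhd on replicate 4 in both regions, Cox6b1 overlaps between regions through medulla replicate 2, and Atp5hl1 does not overlap.

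Other genes were set beside these array values. The tubular injury markers had a median deviation of 1.12 on medulla replicate 4 and 1.47 on cortex replicate 4, with 6 of 6 above the region's mean on each. Markers of the thick ascending limb, a segment rich in mitochondria, were at -0.75 on medulla replicate 4 and -1.07 on cortex replicate 4, and their summed intensity ran from 3331 to 7906 in medulla and from 2843 to 8221 in cortex. Other cell types moved on the same arrays. Collecting duct markers were at -0.74 on medulla replicate 4 and -0.56 on cortex replicate 4, and markers of the distal convoluted and connecting tubule at -0.60 on medulla replicate 4 and -0.32 on cortex replicate 4. Leukocyte markers were at 0.61 on medulla replicate 4 and 0.26 on cortex replicate 4. Proximal tubule markers were at -0.23 on medulla replicate 4 and 0.08 on cortex replicate 4, medians over a list that moved both ways. On medulla replicate 4, 6 of the 9 lay below the region's mean, and on cortex replicate 4, 4 of the 9 did. Slc5a12 gave 4.98, 5.66, 6.69 and 6.88 in medulla, against 5.03, 5.76, 6.16 and 7.90 in cortex. Slc34a1 gave 10.84, 11.01, 9.86 and 9.71 in medulla, against 10.59, 10.98, 11.10 and 10.42 in cortex. A set of 52 cytosolic ribosomal protein genes, chosen after the data were seen, was at 0.25 on medulla replicate 4 and 0.21 on cortex replicate 4, above the mean where the respiratory genes were below it. On medulla replicate 2, where 82 of the 100 genes were highest, inner medulla markers were at -0.48, with 4 of 4 below the region's mean. Markers of the distal convoluted and connecting tubule were at 0.75 there, and podocyte markers at 0.53. Collecting duct markers were at 0.36 on that array, those of the thick ascending limb at 0.29 and proximal tubule markers at 0.17. Tubular injury markers were at -0.83 there and leukocyte markers at -0.39. The part of tissue makeup, of injury and of RNA quality in the array pattern was not tested. Erythrocyte markers (0 of 4 measured) could not be read, and the 4 muscle markers kept a summed intensity of 130 to 136 in medulla and 131 to 137 in cortex.

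Other genes of mitochondrial energy supply were read from lists. Of 36 genes of the chain outside the symbols used here (cytochrome c, cytochrome c1 and assembly factors of complexes I to V), 29 were measured, 21 of these had a negative medulla minus cortex difference, the median was -0.07 and 0 were called by limma (2 lower and 0 higher at an unadjusted p under 0.05). Their median deviation was -0.12 on medulla replicate 4 and -0.09 on cortex replicate 4. The cytochrome c gene Cycs gave 10.18, 10.38, 9.92 and 9.64 in medulla, against 10.33, 10.37, 10.19 and 9.80 in cortex, lowest on replicate 4 in both regions. Cytochrome c1, Cyc1, gave 8.82, 8.91, 8.12 and 8.33 in medulla, against 8.71, 8.73, 8.60 and 8.49 in cortex, with its low on medulla replicate 3. Of 18 tricarboxylic acid cycle genes 15 were measured, 13 were negative, and 0 were called (0 at an unadjusted p under 0.05), with a median of -0.11 and deviations of -0.17 on medulla replicate 4 and -0.16 on cortex replicate 4. Of 21 membrane and import genes of mitochondria 17 were measured, 13 were negative, and 0 were called (1 lower and 0 higher at an unadjusted p under 0.05), with a median of -0.07 and deviations of -0.05 on medulla replicate 4 and -0.06 on cortex replicate 4. Mitochondrially encoded subunits were not analysed here.

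Regulators of mitochondrial biogenesis showed no common direction between the regions: 7 of 14 were negative, 0 were called (0 at an unadjusted p under 0.05), and the median was 0.00. Ppargc1a, the coactivator PGC-1alpha, gave 8.84, 8.88, 9.08 and 8.35 in medulla, against 9.10, 8.75, 8.87 and 8.10 in cortex. Esrrg, estrogen-related receptor gamma, gave 7.94, 7.88, 7.63 and 6.88 in medulla, against 8.12, 7.80, 7.73 and 6.90 in cortex. Both were lowest on replicate 4 of each region, by a margin larger than the spread of the other 3 arrays. They do not stand for the list. Over the 14 regulators the median deviation was -0.05 on medulla replicate 4 and -0.04 on cortex replicate 4. On medulla replicate 4, 9 of the 14 lay below the region's mean, and on cortex replicate 4, 10 did. Pprc1 went the other way: it gave 5.83, 5.78, 5.71 and 6.42 in medulla, and in cortex it was also highest on replicate 4. Nrf1 averaged 6.05 ± 0.06 in medulla and 5.96 ± 0.04 in cortex, and Yy1 averaged 7.43 ± 0.04 in medulla and 7.44 ± 0.08 in cortex (SD, n = 4 each). The ETS factor gene Gabpa gave 6.68, 6.49, 7.02 and 6.82 in medulla, against 6.71, 6.54, 6.54 and 6.56 in cortex, with no low on replicate 4. The 36 genes with 1 or more of the 4 activator motifs had a median regional difference of -0.16, against -0.08 for the 45 with none. Their median deviations were -0.21 on medulla replicate 4 and -0.15 on cortex replicate 4, against -0.18 on medulla replicate 4 and -0.13 on cortex replicate 4 for the genes with none. No copy is among the 36, and of the alternative isoforms only Cox8c and Ndufa4l2 are. The 45 thus hold every copy that has a window and most of the isoforms that have one, which are largely dim. The motif split therefore also divides the genes by kind and brightness, and the part of these was not tested.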

How the data were processed

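Total RNA from homogenised kidney was converted to biotinylated sense-strand DNA for Affymetrix arrays, per the labels. The intensity of every probe set on 8 arrays was deposited as 1 table, for which the submitters' processing notes name Affymetrix Expression Console and RMA. No version is given in the sources used here. Values from 17.3 to 6229 with near-equal medians were taken as linear and already normalized, so log2 of the deposited values was used with no pseudocount. No detection call was used, and precision is limited by how many arrays there are.

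Of 29870 probe sets, the platform annotation named 18511 with 1 symbol, 575 with several and 10784 are unnamed here. Only the first were used, with the brightest probe set per gene (5 of the 100 genes had several) and no filter on dim genes, so all 100 entered every fit. A further 8 probe sets with several symbols fit the rule in part and were not used.

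Medulla was set against cortex in limma 3.58.1 under R 4.3.3, with lmFit, eBayes and Benjamini-Hochberg adjustment over 18166 genes, a pipeline tested on simulated data. Counts, medians, ranges and deviations are descriptions. Promoter windows and biotypes are RefSeq's, assembly GRCr8. The genes, lists and motifs were chosen with earlier results of these data known. By rule the text names, for each complex and the assembly factors, up to 2 genes with the most negative and 2 with the most positive difference, every gene with a 2-fold range, the 3 smallest p-values and isoform pairs (34 genes); others were chosen after their values were seen. Alternatives were quantile normalization, centring on array medians, averaging a gene's probe sets, a filter on genes under the 30th percentile, each array left out, a trended robust prior, array weights, other thresholds, deviations from the median of the other 3 arrays, and structural subunits only. Leaving out both replicate 4 arrays and keeping genes above the upper quartile were added after seeing the data, as were the counts by complex and kind of gene without medulla replicate 4.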

Additional observations from a re-analysis of the deposited data

How the results depend on the processing

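Of 539 alternative values, 507 were marked the same as the main value. A count or a median range was so marked when within 1.5-fold of the main value. A median difference or deviation was so marked when it moved by less than the spread between arrays without a change of sign. A gene named by rule was so marked when its sign and its side of the adjusted p threshold held. The lowest adjusted p of such a gene by limma was 0.248, so only its sign could alter the mark. No gene of the set was called under any alternative, and over all genes a 2-fold difference with no test gave 16 genes, 0 of them in the set. The count of negative differences ran from 70 to 93 when 1 array was left out, and the median from -0.186 to -0.044. A 1.5-fold range was reached by 38 genes in medulla and 11 in cortex, where 2-fold gave 3 in medulla and 0 in cortex. Without both replicate 4 arrays the median range in cortex was 0.19, where all 4 arrays gave 0.30. With 1 array left out, 0 to 3 genes had a 2-fold range in medulla and 10 to 38 a 1.5-fold range, and in cortex 0 to 11 had a 1.5-fold range. The share of all genes with a 1.5-fold range also fell, to 6.43% in medulla and 3.17% in cortex without replicate 4 of that region. The median deviation on cortex replicate 3, 0.008, was -0.040 against the median of the other 3 arrays, -0.005 for structural subunits and -0.014 for genes above the upper quartile. The cause of these shifts was not tested. Leaving out 1 array turned the sign for 11 of the 34 genes named by rule: Ndufs6 ran from -0.05 to 0.23, Sdha ran from -0.24 to 0.01, Sdhd ran from -0.23 to 0.04, Uqcr10-ps1 ran from -0.15 to 0.05, Uqcr11l1 ran from -0.14 to 0.02, Cox4i2 ran from -0.06 to 0.01, Cox8b ran from -0.05 to 0.03, Ndufa4l2 ran from -0.14 to 0.08, Atp5f1d ran from -0.29 to 0.06, Atp5mc1l1 ran from -0.06 to 0.18 and Ndufaf5 ran from -0.04 to 0.14. Quantile normalization, median centring and the mean of probe sets turned no sign among them. No paired analysis was possible because the replicate numbers are accession order only. No detection calls were used, so whether the dim copies and isoforms lay above background was not tested.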
